A study of Mus musculus with 4 samples.

Results

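The Notch receptors *Notch1*, *Notch2*, *Notch3* and *Notch4*, their ligands *Jag1*, *Jag2*, *Dll1* and *Dll4*, and the target genes *Hes1* and *Hey1* were followed in single cells of the mouse mammary gland. These 10 genes were chosen by symbol among the 28693 genes of the count matrices, and their counts were summed per mouse in 5 cell classes. There were 4 droplet-based 3' libraries, 1 from each mouse. All mice were adult and nulliparous, had floxed alleles of both kinases (Lats1 f/f;Lats2 f/f) and the R26-lsl-EYFP reporter, and received tamoxifen, 2 mg on each of 5 days, with collection 7 days after the last dose. The 2 WT mice had no Cre and 1 copy of the reporter. The 2 LATS1/2 KO mice also had Krt8-CreERT2, with the reporter heterozygous in replicate 1 and homozygous in replicate 2. Cre was driven by the promoter of *Krt8*, a luminal keratin, so a LATS1/2 KO gland mixes recombined with unrecombined luminal cells and holds basal, vascular and immune cells that the driver does not target. Cells were sorted as live, with no enrichment for a type.

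Notch receptors sit in the membrane and are activated by Jagged and Delta-like ligands on a neighbouring cell. Cleavage by ADAM proteases and gamma-secretase frees the intracellular domain, which joins RBPJ and Mastermind proteins in the nucleus and switches on HES and HEY repressors. In the mammary gland the pathway is known for its activity in luminal progenitors. In vessels, *Dll4* and *Notch4* are typical of endothelium and *Notch3* of the perivascular cells that wrap it.

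After filtering, 3515 to 5272 cells per library remained, with 38792520 to 46810771 UMIs per library and a median of 5962.5 to 10141 UMIs per cell. In the order WT replicates 1 and 2 and LATS1/2 KO replicates 1 and 2, luminal ER- cells (the hormone receptor-negative lineage) numbered 2996, 2150, 2435 and 2565, hormone-sensing cells (luminal ER+) 1398, 1042, 492 and 144, basal cells 197, 161, 394 and 530, endothelial cells 44, 36, 265 and 264 and perivascular cells 17, 8, 48 and 66. Levels are given as CPM, the UMIs of a gene per 1000000 UMIs of the class in a library. Markers picked from the lists were present in every library of each class: *Elf5* at 84.6 CPM or more in luminal ER- cells, *Foxa1* at 123 or more in hormone-sensing cells, *Krt5* at 671 or more in basal cells, *Cdh5* at 510 or more in endothelial cells and *Rgs5* at 243 or more in perivascular cells. Of the 11 luminal ER- markers, 10 were lower and 0 higher in LATS1/2 KO luminal ER- cells (edgeR, adjusted p under 0.05). Of 10 hormone-sensing markers 4 were lower and 2 higher in their class, and of 10 basal markers 6 and 3. Over all genes tested, 30.7%, 13.8% and 16.4% were lower in these classes, and 33.6%, 14.9% and 16.1% higher. The part of these changes in the results below was not tested. Nearly all WT and LATS1/2 KO luminal ER- cells lay in different clusters, as did nearly all basal and most hormone-sensing cells. A hormone-sensing cluster led by *Slc7a2* held 103 and 53 WT and 36 and 14 LATS1/2 KO cells. The 10 basal markers in luminal ER- cells summed to 33.1 and 24.8 CPM in WT and 1713 and 1406 in LATS1/2 KO, with 5 of 9 tested higher and 2 lower, and their part in the results below was not tested. *Lats1* in these cells was at 25.7 and 25.3 CPM in WT and 13.9 and 16.5 in LATS1/2 KO (-1.11, adjusted p = 0.000133), and *Lats2* at 15.1 and 16.7 CPM in WT and 28.9 and 30.9 in LATS1/2 KO (0.55, adjusted p = 0.00246). The sources used here do not place the deleted exons relative to the 3' tags, so these counts do not check the labels. A UMI of *EYFP* was seen in 14 of 4914 and 18 of 3515 cells of the WT libraries. In LATS1/2 KO it was seen in 525 of 2435 and 698 of 2565 luminal ER- cells and 43 of 492 and 27 of 144 hormone-sensing cells. Basal cells held it in 15 of 394 and 26 of 530, endothelial cells in 7 of 265 and 14 of 264 and perivascular cells in 1 of 48 and 4 of 66. The basal shares, 3.81% and 4.91%, lay within the endothelial ones, 2.64% and 5.30%, a class that the driver does not target. In sums of cells, fewer expressing cells and less RNA per cell cannot be told apart.

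LATS1/2 KO was compared with WT over the mice of each class (edgeR quasi-likelihood F test, Benjamini-Hochberg adjustment over all genes tested, threshold 0.05, 2 mice per group). In luminal ER- cells all 10 genes were tested: *Jag1*, *Jag2* and *Dll1* rose and *Notch1*, *Notch3*, *Dll4* and *Hey1* fell, where 33.6% of 13653 genes rose and 30.7% fell. In hormone-sensing cells 8 were tested and 2 fell, *Notch1* and *Hey1*, where 14.9% of 12514 genes rose and 13.8% fell. In basal cells 7 were tested: *Jag1* and *Hes1* rose and *Notch1*, *Dll1* and *Hey1* fell, where 16.1% of 9461 genes rose and 16.4% fell. In endothelial cells 9 were tested and 2 fell, *Jag1* and *Hey1*, where 2.95% of 7447 genes rose and 3.59% fell. Most genes tested changed in luminal ER- cells, so a count of 7 there stands close to its background. The genes left untested had too few UMIs for the count filter. *Hey1* was lower in all 4 classes tested, and *Jag1* was higher in luminal ER- and basal cells and lower in endothelial cells.

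**Figure D1:**
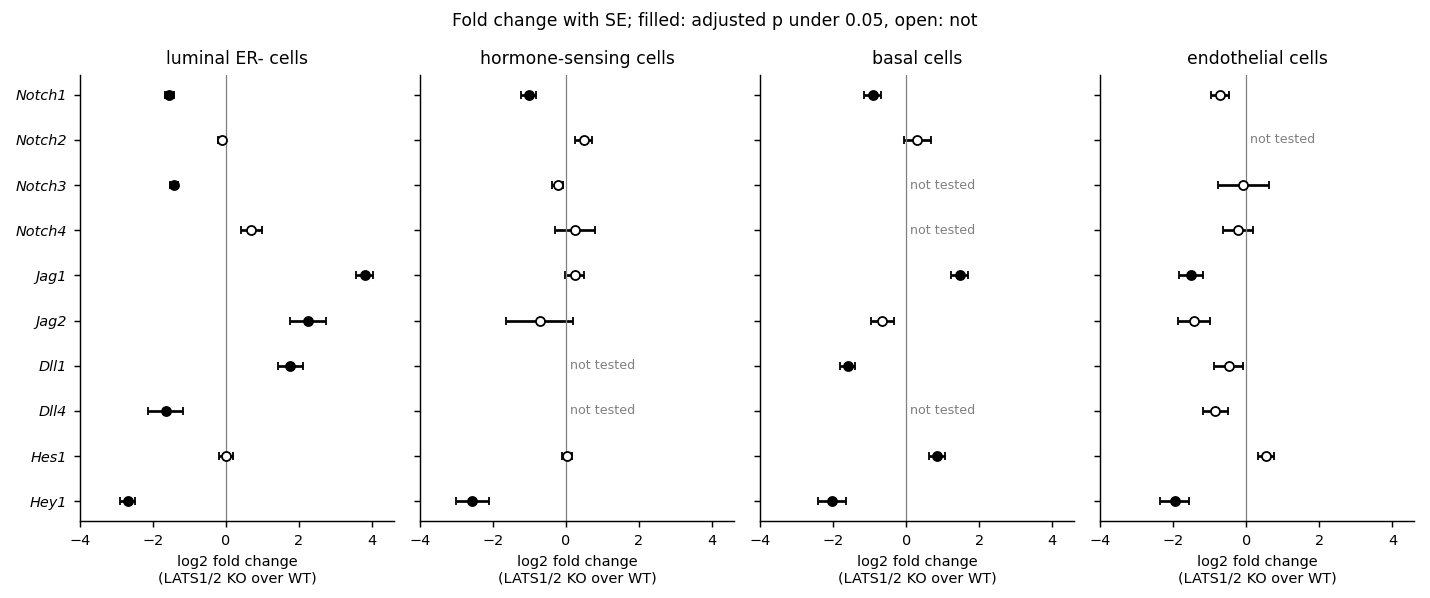
Log2 fold change of each gene, LATS1/2 KO over WT, in the 4 cell classes tested, with bars of 1 SE; filled points have an adjusted p under 0.05 and open points do not. *Hey1* lies below 0 in all 4 classes, and *Jag1* runs from 3.80 in luminal ER- cells to -1.52 in endothelial cells.

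*Notch1* was the receptor with the highest level in luminal ER- cells, at 170 and 200 CPM in WT and 73.3 and 88.7 in LATS1/2 KO. Both LATS1/2 KO libraries lay below both WT libraries (-1.55 ± 0.12, adjusted p = 4.70e-05). Fold changes in luminal ER- cells are on the TMM scale, which differs by 0.36 at the median gene from the ratio of plain CPM (0.12 in basal cells), and by library totals alone *Notch1* stood at -1.19 (adjusted p = 0.0001298). Hormone-sensing cells held less *Notch1*, 44.2 and 49.3 CPM in WT and 18.9 and 30.4 in LATS1/2 KO, again with no overlap (-1.03 ± 0.20, adjusted p = 0.0141). That call was lost without LATS1/2 KO replicate 1, at -0.67 (adjusted p = 0.0719). In basal cells the levels were 42.7 and 53.2 CPM in WT and 26.5 and 28.1 in LATS1/2 KO (-0.92 ± 0.24, adjusted p = 0.00667). RNA free in the suspension was estimated to give 21.01 and 20.8 CPM of this in WT and 17.7 and 12.7 in LATS1/2 KO. The basal call was lost when each cell was assigned from its own marker scores, at -0.34 (adjusted p = 0.188), without WT replicate 2, at -0.77 (adjusted p = 0.0746), and with DESeq2, at -0.92 (adjusted p = 0.08798). Endothelial cells had the most *Notch1*, 209 and 304 CPM in WT and 139 and 160 in LATS1/2 KO, without overlap (-0.73 ± 0.25, adjusted p = 0.102). Without WT replicate 1 this passed the test, at -0.98 (adjusted p = 0.0138).

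*Notch3*, known for its role in mural cells, fell in luminal ER- cells, where it was at 46.8 and 49.6 CPM in WT and 21.3 and 24.7 in LATS1/2 KO (-1.43 ± 0.10, adjusted p = 3.08e-05). With each cell assigned from marker scores the change was -0.85 (adjusted p = 0.000782). In hormone-sensing cells the libraries overlapped, at 51.6 and 43.5 CPM in WT and 37.6 and 45.3 in LATS1/2 KO (-0.24 ± 0.15, adjusted p = 0.279). *Notch3* passed the test there with an unnamed cluster of LATS1/2 KO cells led by *Crct1* counted as hormone-sensing, at -0.56 (adjusted p = 0.0201). In basal cells *Notch3* had 6 and 4 UMIs in WT and 5 and 17 in LATS1/2 KO and was not tested, and in endothelial cells the groups overlapped at 16.4 and 13.2 CPM in WT and 8.38 and 19.02 in LATS1/2 KO (-0.087 ± 0.69, adjusted p = 0.963). *Notch2* in luminal ER- cells was at 17.8 and 17.3 CPM in WT and 21.2 and 20.6 in LATS1/2 KO, higher in LATS1/2 KO by CPM but at -0.11 ± 0.10, adjusted p = 0.365 on the TMM scale and 0.25 (adjusted p = 0.0544) by library totals, so its direction depends on the scaling. In hormone-sensing cells it was at 10.7 and 8.18 CPM in WT and 14.2 and 11.6 in LATS1/2 KO (0.49 ± 0.23, adjusted p = 0.164), with no overlap. It passed the test there with marker scores, at 0.75 (adjusted p = 0.0372), and with the *Crct1* cluster counted in, at 0.86 (adjusted p = 0.0163). In basal cells it was at 15.1 and 11.8 CPM in WT and 19.5 and 16.98 in LATS1/2 KO (0.30 ± 0.37, adjusted p = 0.567), also with no overlap and not past the test, and in endothelial cells it had 1 and 2 UMIs in WT and 5 and 7 in LATS1/2 KO. *Notch4*, a receptor of vessels, was low in luminal ER- cells, with 26 and 30 UMIs in WT and 62 and 70 in LATS1/2 KO. These counts are 0.9899 and 1.38 CPM in WT and 2.48 and 2.41 in LATS1/2 KO (0.69 ± 0.28, adjusted p = 0.06303). Its groups did not overlap there, and it passed the test by library totals, at 1.05 (adjusted p = 0.01198), without the cycling cluster, at 0.89 (adjusted p = 0.0299), without the low-count filter (adjusted p = 0.0449) and in thinned sums (adjusted p = 0.0451). In endothelial cells, its main site, it was at 36.9 and 52.8 CPM in WT and 28.2 and 45.96 in LATS1/2 KO and overlapped (-0.23 ± 0.41, adjusted p = 0.811). In hormone-sensing cells it had 20 and 24 UMIs in WT and 5 and 3 in LATS1/2 KO (0.24 ± 0.54, adjusted p = 0.806) and in basal cells 3 and 2 UMIs in WT and 5 and 8 in LATS1/2 KO, where it was not tested.

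*Jag1*, a Jagged ligand, was nearly absent from WT luminal ER- cells, with 33 and 22 UMIs in WT and 582 and 515 in LATS1/2 KO. These counts are 1.26 and 1.01 CPM in WT and 23.3 and 17.8 in LATS1/2 KO, far apart between the groups (3.80 ± 0.23, adjusted p = 1.23e-05). Free RNA was estimated at 3.18 and 2.06 CPM of *Jag1* in the LATS1/2 KO cells, and with it subtracted the change was 4.24 (adjusted p = 1.63e-05). Assigning each cell from marker scores gave 2.33 (adjusted p = 0.000506). Of the cells of the luminal ER- clusters, this kept 7054 in the class and left out 2146 near the cut between classes. It moved 483 of them to the basal class, beside 1155 cells from the basal clusters, and smaller numbers to other classes. In cells thinned to 2000 UMIs, a *Jag1* UMI was seen in 0.175% and 0.143% of WT and 4.97% and 3.77% of LATS1/2 KO luminal ER- cells. Without thinning the shares were 1.07% and 0.977% of WT and 15.3% and 12.05% of LATS1/2 KO cells, at median depths of 6640, 7821, 8052 and 8490 UMIs. Of the thinned lymphocytes of WT, a class not known to make *Jag1*, 0 of 143 and 1 of 73 held a UMI, at median depths of 2689 and 3165 UMIs; by the limit of 3 counts used for a count of 0, the former allows a share of up to 2.10%, for counting error only. In LATS1/2 KO, 0 of 8 and 0 of 64 thinned lymphocytes held one, at median depths of 1554 and 2151 UMIs, which by the same limit allows up to 37.5% and 4.69%, so few lymphocytes limit that comparison.

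Basal cells also had more *Jag1*, at 68.8 and 36.9 CPM in WT and 175 and 146 in LATS1/2 KO, without overlap (1.47 ± 0.23, adjusted p = 0.000151). With each cell assigned from marker scores the change was 0.70 (adjusted p = 0.0254). In hormone-sensing cells the groups overlapped, at 20.3 and 14.1 CPM in WT and 22.96 and 16.2 in LATS1/2 KO (0.24 ± 0.26, adjusted p = 0.521). There *Jag1* passed the test with marker scores, at 0.80 (adjusted p = 0.0334), and with the *Crct1* cluster counted in, at 1.32 (adjusted p = 0.00453). Endothelial cells went the other way, with 86.1 and 189 CPM in WT and 44.97 and 47.5 in LATS1/2 KO (-1.52 ± 0.33, adjusted p = 0.0158). WT replicate 2 was the higher WT library, and without it the endothelial call was lost, at -0.87 (adjusted p = 0.248), as it was without the low-count filter (adjusted p = 0.126) and in sums thinned to the smallest library (adjusted p = 0.208).

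*Jag2*, the other Jagged ligand, was rare in luminal ER- cells, with 3 and 5 UMIs in WT and 31 and 25 in LATS1/2 KO (2.25 ± 0.50, adjusted p = 0.005698). The groups did not overlap, and the call was lost without WT replicate 1, at 1.80 (adjusted p = 0.0575). In basal cells, which held more of it, the libraries overlapped at 22.02 and 50.2 CPM in WT and 23.5 and 25.5 in LATS1/2 KO (-0.66 ± 0.31, adjusted p = 0.114). Assigning each basal cell from marker scores gave -1.77 (adjusted p = 0.00297). That class held 483 cells of luminal ER- clusters beside 1155 of basal clusters, and their part in this value was not tested. Leaving out WT replicate 1 gave -1.09. Endothelial *Jag2* was at 32.8 and 70.4 CPM in WT and 16.8 and 19.8 in LATS1/2 KO, without overlap (-1.44 ± 0.44, adjusted p = 0.07505), and it passed the test without WT replicate 1, at -1.90 (adjusted p = 0.00413). Hormone-sensing cells held little *Jag2*, with 20 and 13 UMIs in WT and 1 and 2 in LATS1/2 KO (-0.73 ± 0.92, adjusted p = 0.5902).

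*Dll1*, a Delta-like ligand, was at 94.9 and 102 CPM in WT and 27.4 and 41.8 in LATS1/2 KO in basal cells, its highest class in WT, and fell there (-1.61 ± 0.21, adjusted p = 2.33e-05). It rose in luminal ER- cells, at 1.03 and 2.26 CPM in WT and 7.64 and 6.48 in LATS1/2 KO (1.77 ± 0.33, adjusted p = 0.00256). The groups did not overlap in either class, in opposite directions. In endothelial cells they overlapped, at 53.3 and 30.8 CPM in WT and 27.4 and 31.7 in LATS1/2 KO (-0.48 ± 0.40, adjusted p = 0.548). In LATS1/2 KO the basal and endothelial levels overlapped. Hormone-sensing cells had 5 and 9 UMIs in WT and 7 and 0 in LATS1/2 KO of *Dll1*, which was not tested there. *Dll4*, the ligand of arterial and sprouting endothelium, was at 69.7 and 141 CPM in WT and 65.5 and 46.8 in LATS1/2 KO in endothelial cells, lower in both LATS1/2 KO libraries but not past the test (-0.86 ± 0.34, adjusted p = 0.167). It passed without WT replicate 1, at -1.28 (adjusted p = 0.00737). *Dll4* was not tested in hormone-sensing cells, which had 2 and 4 UMIs in WT and 4 and 3 in LATS1/2 KO, or in basal cells, which had 0 and 0 UMIs in WT and 1 and 1 in LATS1/2 KO. In luminal ER- cells the call on *Dll4* (-1.64 ± 0.48, adjusted p = 0.01900) rested on 11 and 13 UMIs in WT and 4 and 7 in LATS1/2 KO. It was lost with DESeq2 (adjusted p = 0.1503) and without WT replicate 1, WT replicate 2 or LATS1/2 KO replicate 1 (adjusted p = 0.0645, 0.173 and 0.0852).

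Sequence before the start sites is shown for *Notch1*, which fell in the 3 epithelial classes, and for *Jag1* and *Dll1*, which moved in opposite directions between classes. It is taken from RefSeq (GRCm38.p6), written 5′ to 3′ on the gene's strand and ends before the first annotated exonic base. Capitals mark GGAATG or its reverse complement CATTCC, the core letters of the motif of TEAD factors, and TGGGAA or TTCCCA, those of RBPJ; the pair share the letters GGAA and can overlap.
*Notch1*, chr2:26503825-26504072, minus strand: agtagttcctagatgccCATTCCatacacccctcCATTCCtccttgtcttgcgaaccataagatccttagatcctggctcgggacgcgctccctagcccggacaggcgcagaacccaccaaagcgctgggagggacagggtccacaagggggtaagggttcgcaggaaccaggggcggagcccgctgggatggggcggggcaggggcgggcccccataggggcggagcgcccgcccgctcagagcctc
*Jag1*, chr2:137116645-137116770, minus strand: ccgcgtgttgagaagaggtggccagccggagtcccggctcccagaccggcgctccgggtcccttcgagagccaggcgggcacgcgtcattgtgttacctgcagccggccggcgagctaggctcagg
*Dll1*, chr17:15376933-15377182, minus strand: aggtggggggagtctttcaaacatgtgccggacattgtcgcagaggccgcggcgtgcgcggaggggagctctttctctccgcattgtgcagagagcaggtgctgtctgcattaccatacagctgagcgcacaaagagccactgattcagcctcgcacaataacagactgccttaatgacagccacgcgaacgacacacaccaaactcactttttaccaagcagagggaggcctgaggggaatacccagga
The table held promoters of 8 of the 10 genes, in 9 windows of 250 bases before a start, and none for *Hes1* and *Hey1*. The TEAD letters were found in 2 windows, with 2 matches for *Notch1* and 1 for *Notch4*, and the RBPJ letters in 0. Over the 32851 promoters of the table, 12.6% held the TEAD letters and 21.6% the RBPJ letters in windows of that length. A match is a run of letters and no measure of binding.

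*Hes1*, a repressor induced by Notch and by other signals, was abundant in all 5 classes. In luminal ER- cells it was at 260 and 301 CPM in WT and 279 and 444 in LATS1/2 KO, overlapping (0.0034 ± 0.20, adjusted p = 0.9899). With each cell assigned from marker scores it passed the test, at 0.64 (adjusted p = 0.0309). Hormone-sensing cells overlapped too, at 223 and 224 CPM in WT and 197 and 264 in LATS1/2 KO (0.019 ± 0.14, adjusted p = 0.937). Basal cells had more *Hes1* in LATS1/2 KO, at 122 and 81.2 CPM in WT and 161 and 238 in LATS1/2 KO (0.84 ± 0.22, adjusted p = 0.00697). Free RNA was estimated at 43.8 and 42.5 CPM in WT and 72.01 and 67.3 in LATS1/2 KO basal cells, and with it subtracted the change was 1.11 (adjusted p = 0.0265). The basal call was lost without WT replicate 2, at 0.58 (adjusted p = 0.0813), and with marker scores, at 0.58 (adjusted p = 0.06195). Endothelial cells were at 340 and 387 CPM in WT and 440 and 591 in LATS1/2 KO, without overlap but not past the test (0.54 ± 0.23, adjusted p = 0.197).

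*Hey1*, a HEY repressor used as a readout of Notch activity, fell in every class tested. Luminal ER- cells were at 43.4 and 61.4 CPM in WT and 8.68 and 12.1 in LATS1/2 KO (-2.69 ± 0.21, adjusted p = 3.80e-05), and marker scores gave -1.69 (adjusted p = 0.000509). In thinned cells a *Hey1* UMI was seen in 7.84% and 12.3% of WT and 2.201% and 3.39% of LATS1/2 KO luminal ER- cells, against 2.80% and 2.74% of WT lymphocytes, whose exact binomial 95% intervals reach 7.01% and 9.55%, and 0 of 8 and 0 of 64 in LATS1/2 KO, so the LATS1/2 KO shares were not told apart from that class at this depth. Hormone-sensing cells had 117 and 191 UMIs in WT and 5 and 3 in LATS1/2 KO, or 6.29 and 9.82 CPM in WT and 1.13 and 1.94 in LATS1/2 KO (-2.57 ± 0.46, adjusted p = 0.0106). Free RNA was estimated at 0.565 and 0.682 CPM in the latter, and the call was lost without LATS1/2 KO replicate 1, at -2.10 (adjusted p = 0.116). Basal cells were at 22.02 and 20.7 CPM in WT and 5.65 and 5.55 in LATS1/2 KO (-2.04 ± 0.39, adjusted p = 0.000705). Endothelial cells were at 77.9 and 66.01 CPM in WT and 12.96 and 22.98 in LATS1/2 KO (-1.96 ± 0.40, adjusted p = 0.0104), a call that was lost without the low-count filter, at -1.87 (adjusted p = 0.0798), and in sums thinned to the smallest library, at -1.67 (adjusted p = 0.0544). The groups did not overlap in any of the 4 classes.

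**Figure D2:**
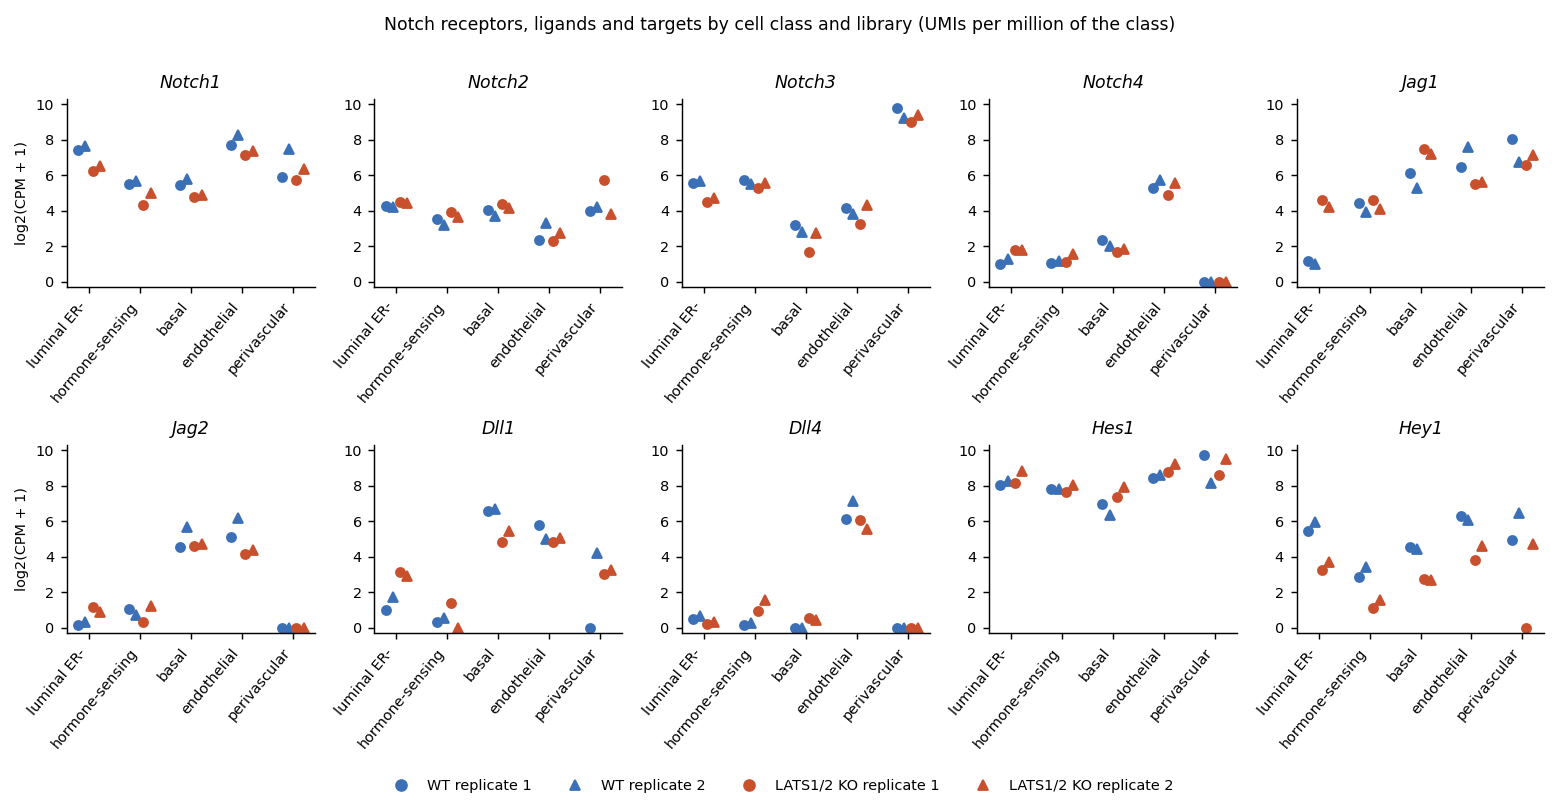
Level of each gene as log2(CPM + 1) in the 5 cell classes, with 1 point per library (blue WT, orange LATS1/2 KO, circles replicate 1, triangles replicate 2). *Dll4* and *Notch4* stand high in endothelial cells and *Notch3* in perivascular cells, and both LATS1/2 KO points of *Hey1* lie under both WT points in the 4 classes tested.

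The order of the classes in WT is a description, since the classes come from the same cells. *Notch1* was highest in endothelial cells, apart from luminal ER- cells, which overlapped with perivascular cells, and basal and hormone-sensing cells were lowest and overlapped. *Notch3* was highest in perivascular cells, then in luminal ER- and hormone-sensing cells, which overlapped, then in endothelial and last in basal cells. *Jag1* was highest in perivascular and endothelial cells, which overlapped, then in basal, hormone-sensing and luminal ER- cells, each apart from the next. *Jag2* overlapped between endothelial and basal cells, while *Dll1* in basal cells stood apart from endothelial cells. *Hes1* overlapped between perivascular and endothelial cells and was lowest in basal cells. *Hey1* in perivascular cells overlapped with both endothelial and luminal ER- cells, which stood apart from each other, and basal and then hormone-sensing cells were lower. *Notch4* and *Dll4* were highest in endothelial cells, apart from the other classes. In LATS1/2 KO, *Jag1* was highest in basal cells, and luminal ER- and hormone-sensing cells overlapped.

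Luminal ER- clusters, which were formed without these 10 genes and the other pathway genes, differed in them. The 4 large WT clusters, led by *Cck*, *Spns3*, *C2cd4b* and *Ltf*, held the most *Hey1* in the *C2cd4b* cluster, at 69.3 and 102 CPM in replicates 1 and 2, and the least in the *Ltf* cluster, at 32.00 and 39.2. In LATS1/2 KO, *Hey1* was at 25.6 and 31.8 CPM in the cluster led by *Wfdc3* and at 13.7 and 20.8 in that led by *Wfdc18*. It was lower in the clusters led by *Sox11* (4.38 and 8.73 CPM), *Sbsn* (2.86 and 2.74) and the cycling gene *Ube2c* (4.62 and 3.02). *Hes1* was at 652 and 858 CPM in the *Wfdc3* cluster and 456 and 702 in the *Wfdc18* cluster, above every WT cluster, of which the *C2cd4b* cluster was highest at 351 and 397. The *Ube2c* cluster, at 148 and 196 CPM, lay below every WT cluster, so the overlapping *Hes1* sums of the class cover clusters on both sides. Among LATS1/2 KO clusters, *Jag1* was lowest in the *Wfdc3* cluster, at 5.86 and 5.17 CPM, and highest in the *Sox11* cluster, at 109 and 104. That cluster also held the most *Dll1*, 16.7 and 13.1 CPM, and *Notch2*, 64.9 and 54.6 CPM. A cluster of 279 LATS1/2 KO cells led by *Crct1* and *Msln* reached too few markers for a class. It held 89.2 and 67.6 CPM of *Jag1* and 0.446 and 0.545 of *Hey1*, the latter from 2 UMIs in all.

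**Figure D3:**
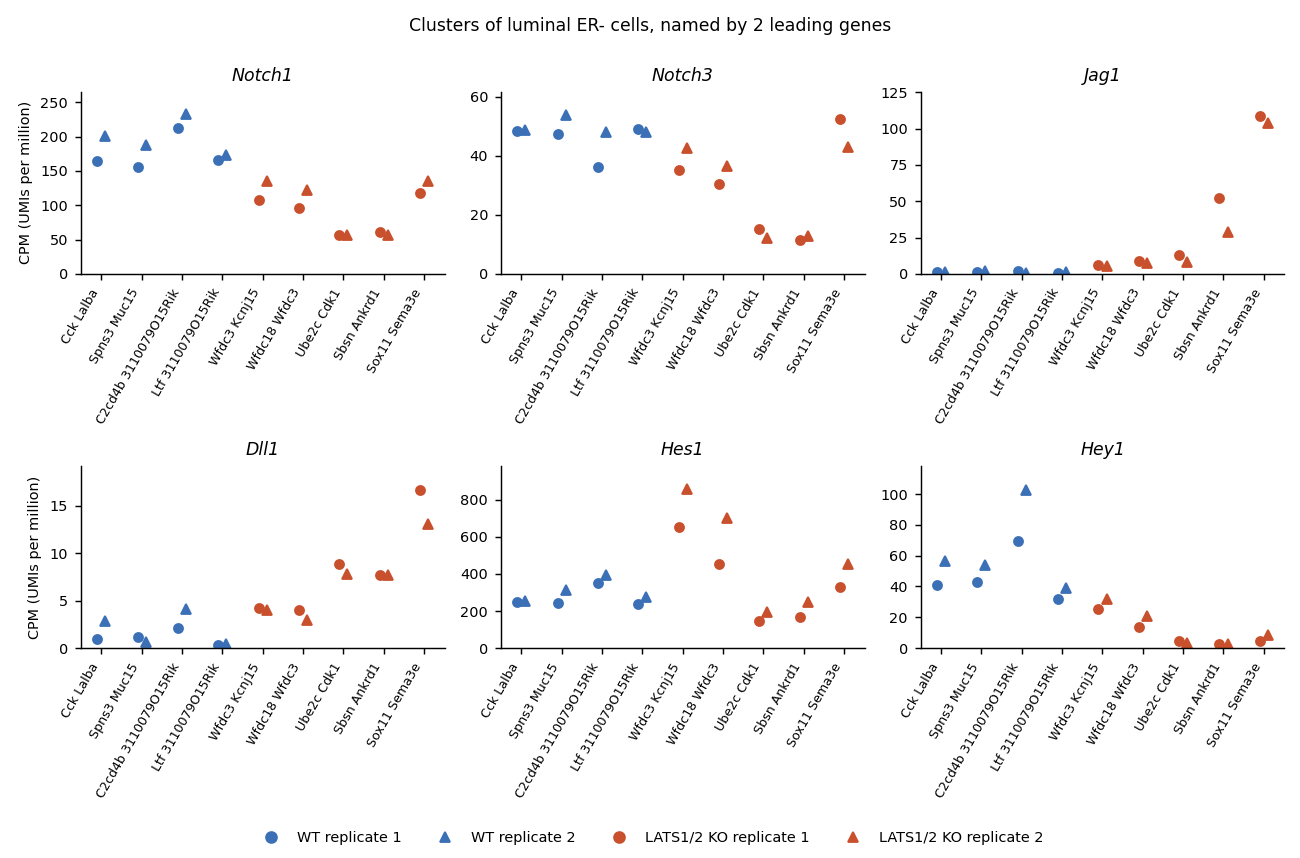
CPM of *Notch1*, *Notch3*, *Jag1*, *Dll1*, *Hes1* and *Hey1* in the luminal ER- clusters with at least 100 cells in a library, named by leading genes, with 1 point per library (blue WT, orange LATS1/2 KO, circles replicate 1, triangles replicate 2). *Hes1* reaches 652 and 858 CPM in the *Wfdc3* cluster, and *Jag1* 109 and 104 CPM in the *Sox11* cluster.

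Within LATS1/2 KO luminal ER- cells, cells with an *EYFP* UMI, a mark of past Cre activity, were compared with cells of the same mouse without one (edgeR with the mouse as block). There were 525 and 698 EYFP+ and 1910 and 1867 EYFP- cells in replicates 1 and 2, with median depths of 14651 and 6877 UMIs, so shallow recombined cells can fall among EYFP- cells. An *EYFP* UMI was also seen in 2.64% and 5.30% of endothelial cells, which the driver does not target, so EYFP+ cells can include unrecombined ones. Of 9 genes tested 4 were lower and 1 was higher in EYFP+ cells, where 21.2% of 12806 genes were lower and 19.9% higher. *Hes1* was at 328 and 564 CPM in EYFP- and 177 and 272 in EYFP+ cells (-0.99 ± 0.058, adjusted p = 3.25e-13), and *Hey1* at 10.5 and 16.8 CPM in EYFP- and 4.92 and 5.303 in EYFP+ cells (-1.45 ± 0.17, adjusted p = 1.59e-07). *Notch3* was at 23.96 and 30.2 CPM in EYFP- and 15.9 and 16.8 in EYFP+ cells (-0.75 ± 0.11, adjusted p = 5.43e-06), and *Notch1* at 77.4 and 103 CPM in EYFP- and 64.8 and 68.4 in EYFP+ cells (-0.45 ± 0.081, adjusted p = 6.97e-05). Both mice had the lower level in EYFP+ cells for each of these 4 genes. *Jag1* was higher in EYFP+ cells of both mice, at 22.3 and 14.4 CPM in EYFP- and 25.4 and 22.6 in EYFP+ cells (0.40 ± 0.12, adjusted p = 0.00694), a call that was lost with DESeq2, at 0.42 (adjusted p = 0.2002), and with at least 2 *EYFP* UMIs, at 0.24 (adjusted p = 0.107). Each cell was also thinned to 2000 UMIs, shallower cells were left out and *EYFP* was read from the thinned counts. This gave 230 and 285 EYFP+ and 2042 and 2074 EYFP- cells, since cells that lost their *EYFP* UMI counted as EYFP-. With thinning, *Hes1* was at -1.03 (adjusted p = 4.10e-22), *Notch1* at -0.71 (adjusted p = 0.00438) and *Jag1* at 0.95 (adjusted p = 0.00565). *Notch3*, at -0.59 (adjusted p = 0.313), and *Hey1*, at -0.96 (adjusted p = 0.268), did not pass then. With no block for the mouse, *Hes1*, *Notch1* and *Jag1* did not pass (adjusted p = 0.0933, 0.117 and 0.323).

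**Figure D4:**
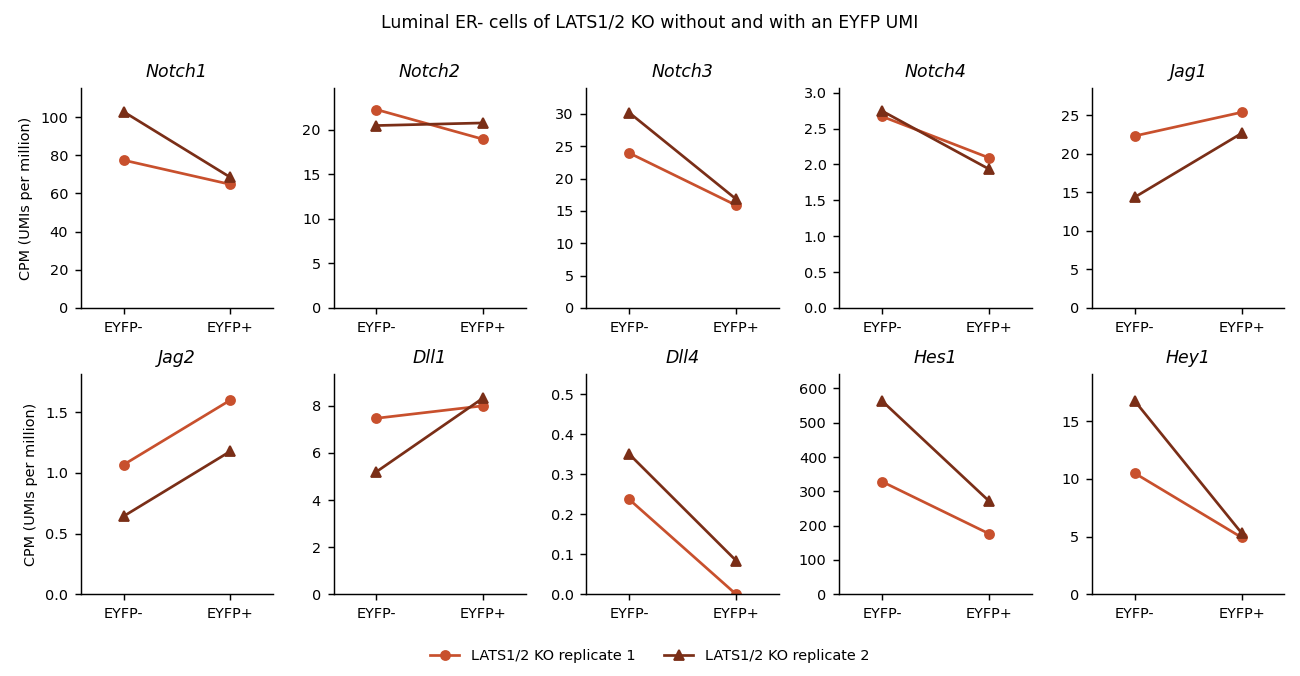
CPM of each of the 10 genes in LATS1/2 KO luminal ER- cells without (EYFP-) and with (EYFP+) an *EYFP* UMI, each line joining the sums of 1 mouse (circles replicate 1, triangles replicate 2). The lines of *Hes1*, *Hey1*, *Notch1* and *Notch3* fall in both mice and those of *Jag1* rise in both.

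Perivascular cells were too few in WT for a test, so levels carry exact Poisson 95% intervals, for counting error only. *Notch3* was at 882 CPM (673 to 1136) and 590 CPM (409 to 825) in WT and at 516 CPM (403 to 651) and 662 CPM (562 to 775) in LATS1/2 KO, overlapping between the groups. *Hes1* was at 838 CPM (635 to 1086) and 278 CPM (159 to 451) in WT and at 385 CPM (289 to 504) and 709 CPM (605 to 825) in LATS1/2 KO, so the mice within each group differed in *Hes1* by more than counting error. *Jag1* was at 265 CPM (157 to 418) and 104 CPM (38.2 to 227) in WT and at 94.5 CPM (50.3 to 162) and 141 CPM (97.00 to 198) in LATS1/2 KO. *Hey1* had 2 and 5 UMIs in WT and 0 and 6 in LATS1/2 KO, *Notch1* 4 and 10 UMIs in WT and 7 and 19 in LATS1/2 KO, *Notch2* 1 and 1 UMIs in WT and 7 and 3 in LATS1/2 KO and *Dll1* 0 and 1 UMIs in WT and 1 and 2 in LATS1/2 KO. *Notch4*, *Jag2* and *Dll4* had 0 UMIs in all 4 libraries, where the limit of 3 counts used for a count of 0 is 12.8 CPM in LATS1/2 KO replicate 2, the deepest, and 52.1 in WT replicate 2, the shallowest.

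The endothelial class differed between the groups in markers of vessel type. The 6 arterial markers summed to 849 and 1307 CPM in WT and 656 and 602 in LATS1/2 KO, with 2 of 6 lower, and the 5 lymphatic markers to 771 and 1100 CPM in WT and 20.6 and 90.3 in LATS1/2 KO, with 2 of 3 tested lower. The 5 capillary markers summed to 959 and 810 CPM in WT and 1770 and 2073 in LATS1/2 KO, with 3 of 4 tested higher, and the 5 venous markers to 3182 and 2249 CPM in WT and 5007 and 4144 in LATS1/2 KO, with 2 of 5 higher. Of the 10 general endothelial markers, 0 of 10 tested changed (edgeR; 5 at an unadjusted p under 0.05 and 0 by DESeq2), and they summed to 6802 and 6297 CPM in WT and 6176 and 6300 in LATS1/2 KO. By DESeq2, 0 arterial and 0 lymphatic markers passed the test, with 3 capillary and 2 venous ones. The 11 luminal ER- markers in endothelial cells summed to 2595 and 3032 CPM in WT and 2151 and 1926 in LATS1/2 KO, with 4 of 11 lower. The arterial, lymphatic, capillary, venous and luminal ER- lists moved beside the lower endothelial *Jag1* and *Hey1*, and their part in those results was not tested.

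**Figure D5:**
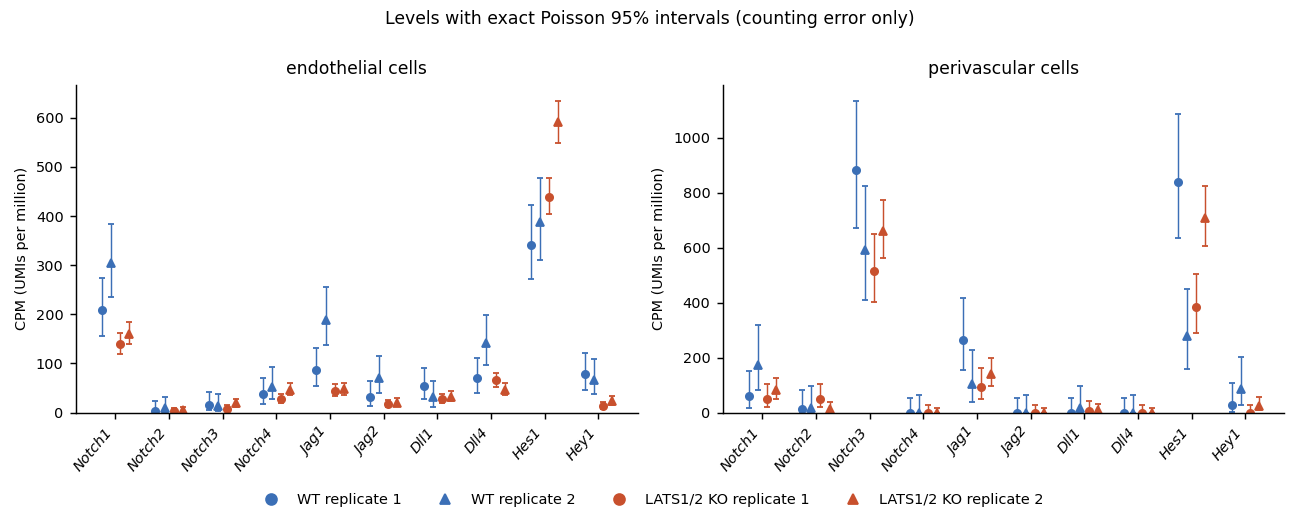
CPM of each gene in endothelial and perivascular cells by library, with exact Poisson 95% intervals (blue WT, orange LATS1/2 KO, circles replicate 1, triangles replicate 2). Endothelial *Hey1* lies at 77.9 and 66.01 CPM in WT and 12.96 and 22.98 in LATS1/2 KO, while perivascular *Notch3* overlaps between the groups.

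Whether the effect of LATS1/2 KO differed from that in luminal ER- cells was tested in 1 edgeR fit over all class sums, with the library as block. It used TMM scaling, and no such fit was made by library totals alone. In hormone-sensing cells 5 of the 10 genes differed, where 29.6% of 12768 genes did, in basal cells 5, where 22.7% did, and in endothelial cells 5, where 15.1% did. The effect on *Jag1* was lower in all 3 classes, by log2 differences of -3.58 ± 0.34, adjusted p = 1.86e-07 in hormone-sensing cells, -2.20 ± 0.39, adjusted p = 0.000313 in basal cells and -5.11 ± 0.45, adjusted p = 6.47e-08 in endothelial cells. With marker scores the first of these was -1.52 (adjusted p = 0.005096). The effect on *Dll1* was lower in basal cells, at -3.27 ± 0.39, adjusted p = 4.50e-06. For *Hey1* the difference did not pass the threshold in hormone-sensing (0.23 ± 0.56, adjusted p = 0.805), basal (0.73 ± 0.39, adjusted p = 0.204) or endothelial cells (0.92 ± 0.35, adjusted p = 0.0846), which does not show equal effects. With marker scores the basal *Hey1* difference changed sign and passed the threshold, at -1.18 (adjusted p = 0.0291). Without WT replicate 1 the endothelial one was 1.37.

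Other genes of the pathway were read from 7 lists with 50 genes. Of these, 40 were tested in luminal ER- cells, 12 rose and 13 fell, with a median log2 fold change of 0.03 beside 0.01 over all genes tested. *Lfng*, a glycosyltransferase that changes the ligand preference of Notch receptors, rose from 4 and 3 UMIs in WT to 178 and 230 in LATS1/2 KO (5.29 ± 0.30, adjusted p = 1.06e-05). *Heyl* and *Hey2*, the other HEY repressors, fell, the first from 3.39 and 2.53 CPM in WT to 0.3602 and 0.207 in LATS1/2 KO (-3.75 ± 0.38, adjusted p = 0.000134) and the other from 2.09 and 2.95 CPM in WT to 0.4803 and 0.517 in LATS1/2 KO (-2.68 ± 0.33, adjusted p = 0.000344). *Mib2*, a ubiquitin ligase that acts on ligands, fell from 11.4 and 13.8 CPM in WT to 2.84 and 4.76 in LATS1/2 KO (-2.08 ± 0.24, adjusted p = 0.0002404). Of 9 inhibitors and turnover genes tested 6 fell and 2 rose, of 9 cleavage genes 4 rose, and of 8 nuclear complex genes 3 fell and 1 rose, beside 33.6% rising and 30.7% falling over all genes tested.

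In hormone-sensing cells 36 of the pathway genes were tested, 5 rose and 5 fell, close to the 14.9% and 13.8% over all genes tested. *Adam10*, a protease that cleaves Notch receptors, rose from 142 and 129 CPM in WT to 294 and 348 in LATS1/2 KO (1.23 ± 0.11, adjusted p = 0.00153), and *Dtx4*, of the Deltex family of ubiquitin ligases, from 5.54 and 7.51 CPM in WT to 19.8 and 18.1 in LATS1/2 KO (1.55 ± 0.22, adjusted p = 0.00521). *Maml3*, a Mastermind coactivator, fell from 47.6 and 46.2 CPM in WT to 24.3 and 23.3 in LATS1/2 KO (-0.97 ± 0.12, adjusted p = 0.00331), and *Poglut1*, which glucosylates the receptors, from 16.03 and 15.2 CPM in WT to 8.11 and 9.05 in LATS1/2 KO (-0.89 ± 0.18, adjusted p = 0.0164). The *Poglut1* call was lost with DESeq2, in thinned sums and without LATS1/2 KO replicate 1 (adjusted p = 0.0711, 0.0542 and 0.0924). That of *Dtx4* was lost without LATS1/2 KO replicate 1 (adjusted p = 0.0583). In basal cells 34 were tested, 7 rose and 4 fell, beside 16.1% and 16.4% over all genes tested. *Hes6*, a HES family gene, rose from 16.5 and 11.8 CPM in WT to 42.6 and 42.4 in LATS1/2 KO (1.45 ± 0.30, adjusted p = 0.00154), and *Dtx4* from 1 and 1 UMIs in WT to 19 and 38 in LATS1/2 KO (2.71 ± 0.73, adjusted p = 0.00907). *Mib2* fell from 15.1 and 11.8 CPM in WT to 2.61 and 4.897 in LATS1/2 KO (-1.90 ± 0.48, adjusted p = 0.00548) and the ligand-like gene *Dlk2* from 9.63 and 11.8 CPM in WT to 2.61 and 4.897 in LATS1/2 KO (-1.56 ± 0.50, adjusted p = 0.0232). The calls on *Dtx4*, *Mib2* and *Dlk2* in basal cells were lost with DESeq2 (adjusted p = 0.142, 0.0677 and 0.195) and in some omissions of 1 library. Those of *Dtx4* and *Dlk2* were lost without WT replicate 1 (adjusted p = 0.0742 and 0.124) or WT replicate 2 (0.0651 and 0.208). That of *Mib2* was lost without WT replicate 1, LATS1/2 KO replicate 1 or LATS1/2 KO replicate 2 (adjusted p = 0.124, 0.162 and 0.0688). In endothelial cells 31 were tested, 1 rose and 1 fell, beside 2.95% and 3.59% over all genes tested. *Neurl1b*, a ubiquitin ligase of ligands, rose from 2 and 0 UMIs in WT to 55 and 49 in LATS1/2 KO (3.24 ± 0.72, adjusted p = 0.0178). That call was lost with DESeq2 (adjusted p = 0.159), without the low-count filter (0.0864) and without WT replicate 2 (0.0557) or LATS1/2 KO replicate 2 (0.259). *Eogt*, which adds O-GlcNAc to Notch, fell from 65.6 and 70.4 CPM in WT to 12.96 and 15.8 in LATS1/2 KO (-2.19 ± 0.38, adjusted p = 0.00415). That call was lost in thinned sums (adjusted p = 0.0532).

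The genes most like each member in pattern were read over 29 sums of a class in a library, from log2(CPM + 1) of 12091 genes. The points share libraries, so the values are descriptions. *Dll4* was most like *Cldn5* and *Tie1* (Pearson r = 0.99 and 0.98), *Notch4* like *Ablim3* and *Grrp1* (0.90 and 0.89), and *Jag1* like *Eogt* and *Ctnnal1* (0.89 and 0.87). *Jag2* was most like *Apol10b* and *Hunk* (0.90 and 0.89), *Dll1* like *Lmo1* and *Hs3st1* (0.85 and 0.81), and *Hes1* like *Mprip* and *Ppp1r2* (0.89 and 0.86). *Mprip* was also among the 2 nearest genes of *Notch3* (0.82), after *Slc25a25* (0.84).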

How the data were processed

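Live mammary cells of 2 WT and 2 LATS1/2 KO mice were profiled by droplet 3' single-cell RNA sequencing. The authors deposited filtered matrices of whole UMI counts per gene and cell, aligned to mm10 with an *EYFP* sequence added; Cell Ranger is given as version 3.1.0 in the submitters' processing notes and as 6.1.2 in the file headers. Cells were filtered on genes and mitochondrial share, normalised with SCTransform 0.4.2 and clustered in Seurat 5.3.0 (R 4.3.3; 20 components, resolution 0.8), and clusters were named from marker lists. Scrublet (scanpy 1.11.5) called 85 of 18200 cells, too few to have worked, so doublets were kept and the 759 highest scores were left out in an alternative. Between libraries, 43 barcodes were shared.

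Deposited counts were summed per class and mouse and tested by quasi-likelihood F tests in edgeR 4.0.16 after filterByExpr and TMM scaling, with a threshold of 0.05 on the Benjamini-Hochberg adjusted p. The SE is the absolute log2 fold change divided by the square root of F. Each library is 1 mouse, so n = 2 per group. Depth was 38792520 to 46810771 UMIs per library. Free RNA was estimated from markers of other classes. DESeq2 1.42.0, other scaling, no count filter, thinned sums, other cell assignments and the omission of each library were alternatives. Scripts were tested on simulated data. Perivascular cells, with under 20 cells in each WT library, were not tested. All 10 genes were named in every class, and for the pathway lists at most 4 genes per class, those with the largest change past the test and no overlap between groups. The genes and lists were chosen with earlier results of these data known.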

Additional observations from a re-analysis of the deposited data

Results flagged for a closer look

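The results below were selected because the effect of LATS1/2 KO in a class differed from that in luminal ER- cells by an interaction term past an adjusted p of 0.05 (edgeR, library as block). Values are log2 differences, the effect in the named class minus that in luminal ER- cells, with the SE. The main fit used TMM scaling, and none was made by library totals alone. By library totals within a class, *Notch1* was at -1.19 in luminal ER-, -1.02 in hormone-sensing, -0.81 in basal and -0.77 in endothelial cells. In the same order *Hes1* was at 0.37, 0.028, 0.97 and 0.50, and *Jag1* at 4.16, 0.25, 1.59 and -1.56. The part of the scaling in the differences was not tested.

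In hormone-sensing cells the effect on *Notch1* (0.53 ± 0.17, adjusted p = 0.0256) and *Notch3* (1.23 ± 0.19, adjusted p = 5.48e-05) was less negative than in luminal ER- cells. The effect on *Jag1* (-3.58 ± 0.34, adjusted p = 1.86e-07) and *Jag2* (-2.97 ± 1.05, adjusted p = 0.0381) was lower. For *Dll4* the difference was 4.40 ± 1.01, adjusted p = 0.00265, from 2 and 4 UMIs in WT and 4 and 3 in LATS1/2 KO hormone-sensing cells. Of 10 alternatives, 3 kept the call on *Notch1*, 9 that on *Notch3*, 10 that on *Jag1*, 6 that on *Jag2* and 9 that on *Dll4*. *Notch1* was lost with DESeq2, no low-count filter, no replicate block, marker scores and without WT replicate 2 or either LATS1/2 KO replicate (adjusted p = 0.161 at no block). *Notch3* was lost with marker scores, at 0.55 (adjusted p = 0.0595), where *Jag1* was at -1.52 (adjusted p = 0.005096). *Jag2* was lost with no replicate block, with marker scores and without WT replicate 1 or LATS1/2 KO replicate 1, at -1.39 (adjusted p = 0.5899) in the last, and *Dll4* without LATS1/2 KO replicate 1 (adjusted p = 0.0525).

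In basal cells the effect was higher for *Notch1* (0.74 ± 0.22, adjusted p = 0.02100) and *Hes1* (0.97 ± 0.19, adjusted p = 0.000964). It was lower for *Jag1* (-2.20 ± 0.39, adjusted p = 0.000313), *Jag2* (-2.71 ± 0.68, adjusted p = 0.00602) and *Dll1* (-3.27 ± 0.39, adjusted p = 4.50e-06). The calls held in 3 of 10 alternatives for *Notch1*, 8 for *Hes1*, 10 for *Jag1*, 8 for *Jag2* and 10 for *Dll1*. *Notch1* was lost with RLE size factors, DESeq2, no replicate block and the omission of any 1 library (adjusted p = 0.0616 to 0.141). *Jag2* was lost without WT replicate 2 or LATS1/2 KO replicate 1 (adjusted p = 0.0614 and 0.0612). With no replicate block the adjusted p of *Hes1* was 0.0641, and with each cell assigned from marker scores its difference was 0.00 (adjusted p = 1.00).

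In endothelial cells the effect was higher for *Notch1* (1.03 ± 0.18, adjusted p = 0.000336) and *Hes1* (0.77 ± 0.19, adjusted p = 0.00738). It was lower for *Jag1* (-5.11 ± 0.45, adjusted p = 6.47e-08), *Jag2* (-3.42 ± 0.76, adjusted p = 0.00341) and *Dll1* (-2.06 ± 0.61, adjusted p = 0.0266). The calls held in 9 of 10 alternatives for *Notch1*, 5 for *Hes1*, 10 for *Jag1*, 9 for *Jag2* and 7 for *Dll1*. With each cell assigned from marker scores 1 of these 5 passed the test, *Jag1*. *Hes1* was also lost with RLE size factors, DESeq2, no replicate block and without LATS1/2 KO replicate 1 (adjusted p = 0.0518, 0.0711, 0.183 and 0.181), and *Dll1* without WT replicate 1, at -1.01 (adjusted p = 0.519), or LATS1/2 KO replicate 1, at -1.94 (adjusted p = 0.0699).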

How the results depend on the processing

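Of 1075 values of single genes under alternatives, 942 kept their direction and their side of the threshold, 78 lost it, 18 gained it and 37 changed sign. *Notch1*, *Notch3*, *Jag1*, *Dll1* and *Hey1* in luminal ER- cells passed in 16 of 16 settings and *Jag1*, *Dll1* and *Hey1* in basal cells in 15 of 15. The labels do not say whether mice of the same replicate number were paired. Deviations of same-numbered libraries correlated at 0.01 in luminal ER-, 0.02 in hormone-sensing, 0.03 in basal and 0.06 in endothelial cells, which cannot settle it. A replicate block gave 8708, 3496, 3418 and 548 genes in these classes and the same counts of 7, 2, 5 and 2 of the 10 genes. The causes of the changes below were not tested. With 2 mice per group, depth in basal and endothelial cells (36 to 530 cells per library) limits what can be detected.

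In hormone-sensing cells, 3582 genes and 2 of the 10 changed. Of the 10, 8 were tested, and some of the alternatives below tested fewer. Thinned sums gave 2120 genes, assignment from marker scores 5 of the 10, and the *Crct1* cluster counted in, an alternative chosen after seeing the data, 5478 genes and 7 of the 10. Without single libraries the range was 1479 to 3531 genes and 0 to 2 of the 10; the 0 was without LATS1/2 KO replicate 1 (edgeR), where 2 had an unadjusted p under 0.05, and DESeq2 on all libraries called 2. In basal cells 3080 genes changed, 1502 with DESeq2 and 4629 from marker scores, and 3 to 6 of the 10 without single libraries (3 without WT replicate 2). In endothelial cells 487 genes changed, 253 with DESeq2, 176 without the low-count filter and 244 in thinned sums. In the latter pair 10 and 5 of the 10 genes were tested and 0 passed (edgeR), with 5 and 3 at an unadjusted p under 0.05. DESeq2 on the full sums called 2. Without single libraries 395 to 739 genes and 1 to 5 of the 10 changed, with 5 without WT replicate 1 and 1 without WT replicate 2.

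Differences of hormone-sensing from luminal ER- cells covered 3 of the 10 with no replicate block, 2425 genes from marker scores (3780 otherwise), and 1582 to 3401 genes and 2 to 5 of the 10 without single libraries (fewest without LATS1/2 KO replicate 1). Those of basal cells covered 3 of the 10 with no replicate block, and 1905 to 2234 genes and 3 to 4 of the 10 without single libraries (3 without WT replicate 2 or LATS1/2 KO replicate 1). Those of endothelial cells covered 1173 genes and 1 of the 10 from marker scores, and 1254 to 1363 genes and 3 to 5 of the 10 without single libraries (fewest without LATS1/2 KO replicate 1). Between EYFP+ and EYFP- cells 5259 genes differed, 1823 with DESeq2, 1182 and 3 of the 10 in thinned cells, and 677 and 2 of the 10 with no replicate block.

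In luminal ER- cells *Hes1* was at -0.011 with RLE size factors, -0.011 with DESeq2 and -0.029 with the replicate block, and -0.35 to 0.28 without single libraries; *Notch2* was at 0.25 by library totals and 0.081 without the cycling cluster. In hormone-sensing cells *Hes1* was at -0.036 without the low-count filter, -0.051 in thinned sums, -0.049 without the highest doublet scores and -0.12 with the *Crct1* cluster; *Notch4* was at -0.23 from marker scores and -0.28 with the *Crct1* cluster. Without single libraries the ranges there were -0.18 to 0.18 for *Hes1*, -0.033 to 0.69 for *Notch4*, -0.14 to 0.55 for *Jag1* and -1.91 to 0.51 for *Jag2*, and in basal cells -1.09 to 0.027 for *Jag2*. Endothelial *Notch3* was at 0.0055 without the low-count filter and -0.24 to 0.086 without single libraries, and *Notch4* at -0.60 to 0.13. Of the differences from luminal ER- cells, marker scores gave 0.95 for *Dll1*, -0.56 for *Hes1* (adjusted p = 0.0286) and -0.53 for *Hey1* in hormone-sensing cells. They gave -1.18 for *Hey1* in basal cells (adjusted p = 0.0291), and 0.74 for *Notch2* and -0.24 for *Hey1* in endothelial cells. Those given with an adjusted p passed the test. Without single libraries the differences from luminal ER- cells ranged from -6.54 to 0.16 for *Dll1*, -0.77 to 0.064 for *Notch4* and -0.077 to 0.22 for *Hes1* in hormone-sensing cells, -0.24 to 1.02 for *Notch3* in basal cells and -0.50 to 0.62 for *Notch2* in endothelial cells. Between EYFP+ and EYFP- cells *Notch2* was at 0.081 in thinned cells and 0.071 without the cycling cluster.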
